A study of Mus musculus with 6 samples.

Results

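The genes described here are the interleukin-10 (IL-10) receptor axis in colonic macrophages: the ligand gene Il10, both receptor chain genes Il10ra and Il10rb, the signal transducer Stat3, its feedback inhibitor Socs3, and 5 genes known to be induced through STAT3 (Nfil3, Sbno2, Etv3, Bcl3 and Ddit4). These 10 of the 14097 genes in the deposited table were chosen by name for their place in the pathway, with earlier results of these data known, and all 10 were found and passed the filter that 11067 genes passed, at least 50 normalized counts in at least 1 library. RNA was sequenced from P3/P4 MΦs of the colonic lamina propria, sorted as CD64+ MHCII+ CD45+ CD11b+ cells without Ly6C or CD103 and with intermediate CD11c, from untreated 129SvEv mice that lacked Il10rb (Il10rb-/-) or carried a single intact allele of it (Il10rb+/-, the control). There were 6 libraries, 1 for each genotype at 1, 3 and 12 weeks of age, so the controls also carried a deleted allele and no wild-type mouse was included. A single mouse gave each 3-week and each 12-week library, and 3 to 5 mice were pooled for each 1-week library according to the labels, and the deletion affects all cells of the mouse rather than macrophages alone. Genotype at a single age is therefore compared between single libraries, without a replicate check.

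IL-10 restrains inflammatory gene expression in macrophages. It binds IL10RA, the chain that confers specificity, and recruits IL10RB, a chain also used by the receptors for IL-22 and type III interferons. The kinases JAK1 and TYK2 on these chains phosphorylate STAT3, which enters the nucleus and induces target genes, among them transcriptional repressors. In the intestine, macrophages are both producers and targets of IL-10, and loss of either receptor chain is known to cause colitis. STAT3 also serves other cytokine receptors, including those for IL-6, IL-21, IL-27 and G-CSF, so its target genes are not read out by IL-10 alone.

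By reads read back from the values, depth on the listed genes ranged from 6700337 reads in Il10rb+/- MΦs of 3 weeks (2.43 normalized counts for a read) to 40754971 reads in the 12-week Il10rb+/- library. All 15 macrophage markers examined were above 3 reads in every library, and their summed level lay between 591915 and 1090040 normalized counts. The 12-week Il10rb-/- library stood apart in part of these and in other cell type markers. The median macrophage marker was at 8511 normalized counts there against 25071 to 30920.0 in the other 5 libraries. Of the 15, 5 (Cx3cr1, Adgre1, C1qa, C1qb and C1qc) were over 3-fold below the 12-week control and 0 above it. Over all genes 14% were over 3-fold apart either way at that age. The 15 had a median log2 ratio of -0.14 (range -3.16 to 1.05). Their sum was highest in this library, with H2-Ab1 at 398482 and H2-Aa at 237194. Summed neutrophil markers were at 5339 normalized counts there against 12.9 to 437.8 in the other 5 libraries, and summed monocyte markers at 32375 against 4321 to 21563. In that same library summed B and plasma cell markers were at 7521 normalized counts, against 18719 in the 12-week Il10rb+/- library and 1015 to 2419 at the earlier ages. Summed epithelial cell markers ranged from 185 to 2308 normalized counts and summed T cell markers from 2552 to 4404. Summed dendritic cell markers were at 11307 and 40009.5 in the 12-week Il10rb+/- and Il10rb-/- libraries, of which Ccr7 alone gave 10331 and 38707. Single genes also carried other 12-week sums. Jchain gave 13325 of the B and plasma cell sum in Il10rb+/- and Sdc1 5560 in Il10rb-/- MΦs. S100a8 and S100a9 gave 1673 and 2906 of the neutrophil sum in Il10rb-/- MΦs. Cd4 and Il7r gave 1712 and 1750 of the T cell sum in Il10rb+/- MΦs, and 210 and 947 in Il10rb-/- MΦs. The T cell sum was lower in the 12-week Il10rb-/- library than in its control (2552 and 4404). The median T cell marker was instead higher there, at 187 normalized counts against 98.8. Because these are bulk samples of sorted cells, fewer cells of a type and less RNA per cell cannot be told apart.

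Promoter sequences were taken from RefSeq (GRCm38.p6) as the 250 bases before and 50 bases after each annotated start. They were found for 7 of the 10 genes, in 9 windows; Il10, Il10ra and Il10rb had none. The 250 upstream bases were searched on both strands for TTCNNNGAA, the spaced palindrome that STAT dimers are known to bind (it reads the same on both strands). It was present in 3 of the 9 windows, those of Socs3 and Sbno2, and in 7.02% of all 32851 windows. The windows that hold it are shown because Socs3 and Sbno2 both rose from 1 to 12 weeks over both genotypes, and the capitals mark the motif. The Socs3 window (chr11:117969367-117969616, minus strand) holds the motif with its first base 154 bases before the start, and 77 of its bases lie in GENCODE exons. All of this window lies inside the GENCODE gene, whose minus-strand start is at 117970047, and the bases after the RefSeq start were not found in a GENCODE transcript, unlike those of the other 8 windows, so it is upstream of the RefSeq start only. The upstream bases of a Sbno2 start (chr10:80101188-80101437, minus strand) hold it 24 bases before that start. The last line gives 30 bases around the motif in the window of another Sbno2 start (chr10:80102703-80102952, minus strand), where it begins 26 bases before the start.
Socs3: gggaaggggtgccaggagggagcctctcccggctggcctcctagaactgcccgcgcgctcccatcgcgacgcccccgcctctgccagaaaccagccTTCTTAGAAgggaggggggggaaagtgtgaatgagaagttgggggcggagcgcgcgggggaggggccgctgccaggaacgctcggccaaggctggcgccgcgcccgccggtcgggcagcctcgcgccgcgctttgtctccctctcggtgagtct
Sbno2: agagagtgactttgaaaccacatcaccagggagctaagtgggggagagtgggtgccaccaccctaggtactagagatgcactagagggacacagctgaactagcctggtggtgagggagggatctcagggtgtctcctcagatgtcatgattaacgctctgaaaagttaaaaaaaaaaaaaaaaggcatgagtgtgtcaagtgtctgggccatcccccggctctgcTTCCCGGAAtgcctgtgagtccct
Sbno2 (other start): aggccgcgccccTTCGCAGAAgcggaagtg
No TTCNNNGAA was found in the windows of Stat3, Nfil3, Etv3, Bcl3 or Ddit4, nor in a further Sbno2 window. A match is a description of these letters and not evidence of binding, and absence from this window says nothing about other sites.

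**Figure D1:**
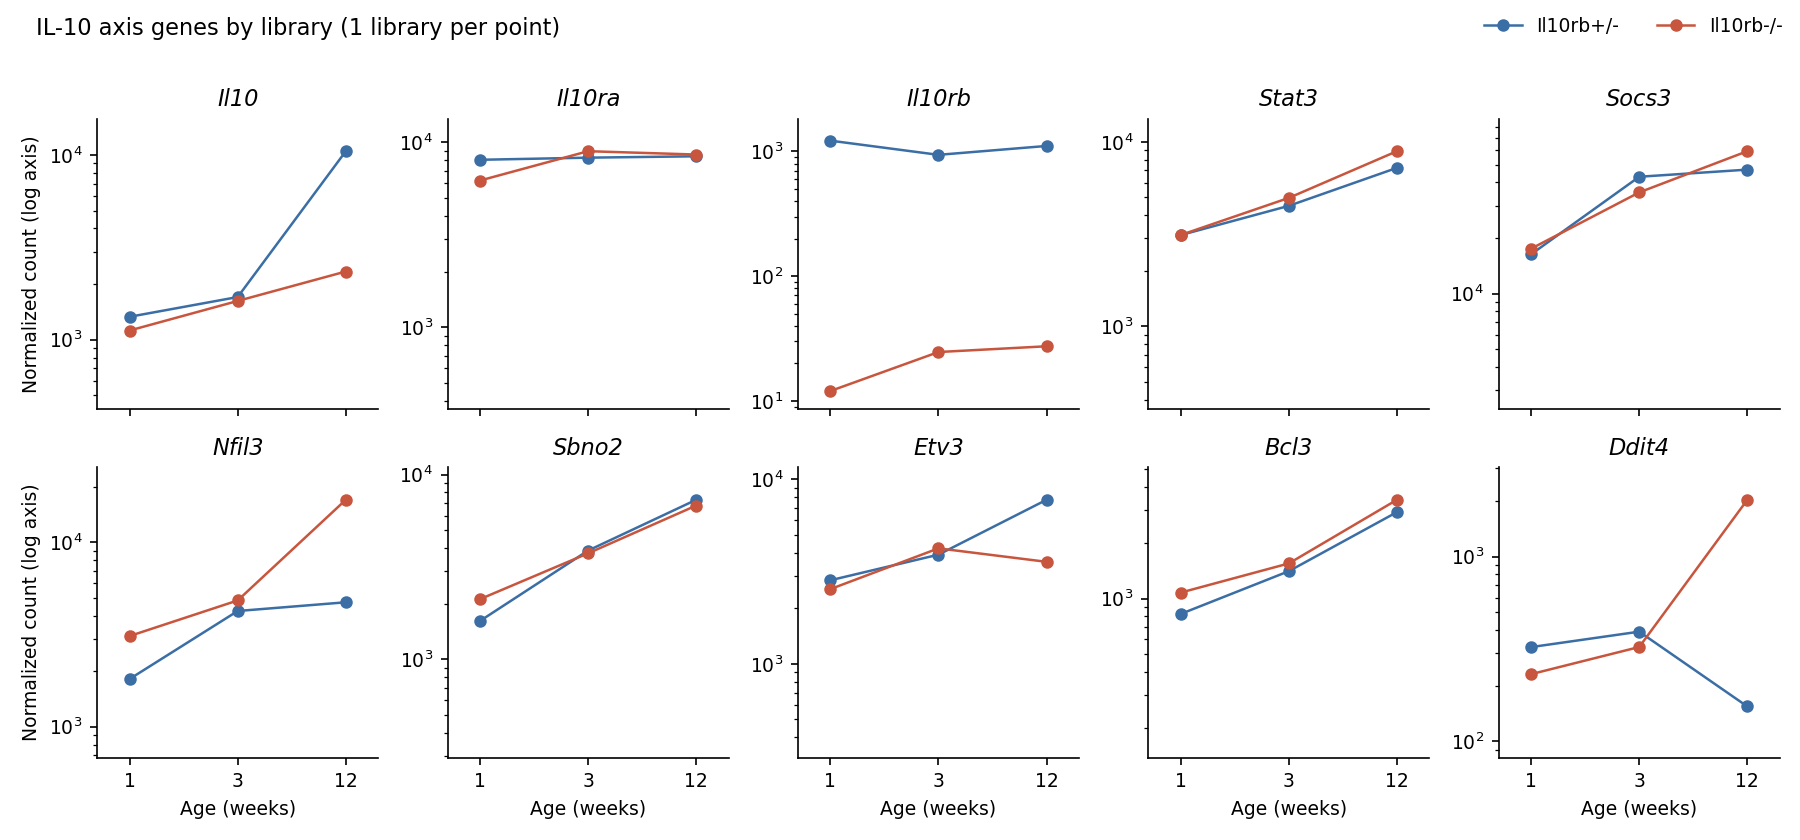
Normalized counts (log axis, scaled separately in each panel) of the 10 genes against age in weeks, with 1 point per library, blue for Il10rb+/- and red for Il10rb-/-. The genotypes lie close together at 1 and 3 weeks except for Il10rb, and part at 12 weeks for Il10, Nfil3, Etv3 and Ddit4.

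The targeted gene was checked first. Il10rb (ENSMUSG00000022969, chromosome 16 from 91406164 to 91425834 of GRCm38, plus strand) had 1221, 939 and 1107 normalized counts in Il10rb+/- MΦs of 1, 3 and 12 weeks. In Il10rb-/- MΦs it had 12.0, 24.6 and 27.4 normalized counts, from 8, 28 and 43 reads. The genotypes did not overlap, and the reads left in Il10rb-/- MΦs amounted to 0.98%, 2.62% and 2.47% of the Il10rb+/- level of the same age. Within Il10rb+/- MΦs the gene varied by 1.30-fold across ages. The 8 genes in the table from the class II cytokine receptor cluster and its surroundings on chromosome 16, among them Ifnar1 at 7971 and 6683 normalized counts at 1 week in Il10rb+/- and Il10rb-/- MΦs, stayed within 3-fold between genotypes at 1 and 3 weeks. At 12 weeks 1 of the 8, Dnajc28, was lower (75.6 and 22.9 normalized counts), with a median log2 ratio over the 8 of 0.12. At that age 14% of all genes were over 3-fold apart either way.

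Il10 (ENSMUSG00000016529, chromosome 1 from 131019845 to 131024974, plus strand), which encodes the cytokine, differed by 7.89-fold across ages in control MΦs, more than the other 9 genes did. In Il10rb+/- MΦs of 1, 3 and 12 weeks it had 1329.6, 1701 and 10488 normalized counts. In Il10rb-/- MΦs it had 1120.3, 1619.7 and 2339 normalized counts. The 12-week Il10rb+/- library was thus above every other library, and the remaining 5 lay within 1120.3 to 2339. The log2 ratio of Il10rb-/- over Il10rb+/- was -0.25 at 1 week (95% interval -0.38 to -0.12), -0.07 at 3 weeks (-0.20 to 0.06) and -2.16 at 12 weeks (-2.22 to -2.11, 3673 against 22184 reads). These exact Clopper-Pearson intervals cover counting error only and compare libraries, not conditions. From 3 to 12 weeks the log2 ratio was 2.62 (2.52 to 2.73) in Il10rb+/- and 0.53 (0.45 to 0.61) in Il10rb-/- MΦs.

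Markers of other cells moved with Il10. In the 12-week Il10rb+/- library Jchain, the joining chain of secreted antibodies, was at 13325 normalized counts against 1359 in the Il10rb-/- library of that age, and Ms4a1, which encodes CD20, at 921 against 75.1. Of the 9 B and plasma cell markers, 8 were over 3-fold lower in 12-week Il10rb-/- MΦs (median log2 ratio -3.04). Sdc1 was instead higher (634 and 5560 normalized counts). Over all genes 3.5%, 1.98% and 14% were over 3-fold apart either way at 1, 3 and 12 weeks. At 1 week none of the 9 was over 3-fold lower (lowest log2 ratio -1.40) and 2 were higher, Sdc1 by a log2 ratio of 3.98 and Jchain with 0 and 4 reads. At 3 weeks, with Il10 at -0.07, Ms4a1 was lower (-1.66), Jchain higher (2.17) and the list's median -1.13. Their part in the Il10 difference was not tested. Across the 6 libraries the genes whose log2 values followed Il10 most closely were Eaf2 (Pearson r = 0.99), Arhgef15 (0.98) and AU021092 (0.98), out of 30 of 11066 genes at r of 0.95 or more. The 3 named genes peaked in the 12-week Il10rb+/- library, with Eaf2 at 98.3 normalized counts there and between 8.99 and 24.2 elsewhere. AU021092 was listed with 0 reads in the 4 libraries of 1 and 3 weeks. All 3 passed the filter only through that 12-week library (Arhgef15 at 66.2 and AU021092 at 50.1 there). A peak there was thus built into their selection. This likeness is a description over 6 libraries that share age, genotype and depth differences.

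Of 17 regulators of Il10 transcription, none was over 3-fold apart between genotypes at 1 or 3 weeks and 3 were at 12 weeks, where 14% of all genes were. Below that threshold Crem, a cAMP-responsive modulator, was 1.45 higher in log2 ratio at 1 week and 1.16 at 3 weeks, and Cebpb, a bZIP factor, 1.02 at 1 week (both named after their values were seen). At 12 weeks Maf, a transcription factor known to promote Il10 transcription in macrophages and T cells, was at 2132 and 257 normalized counts in the Il10rb+/- and Il10rb-/- libraries (log2 ratio -3.05, -3.20 to -2.90). Irf4, which acts in lymphocytes and in alternatively activated macrophages, was also lower, at 3528 and 1168. Hif1a, the hypoxia-inducible factor subunit, was higher, at 5190 and 26064 normalized counts (log2 ratio 2.33). The remaining 14 were within 3-fold, with Fos at 184354 and 157398 and Jun at 99753 and 36293. Over the 17 the median was 0.09 in log2 ratio, beside 0.04 over all genes tested. In Il10rb+/- MΦs Maf stood at 4194, 3504 and 2132 normalized counts at 1, 3 and 12 weeks, an order opposite to that of Il10. The part of these regulators in the Il10 values was not tested.

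Il10ra (ENSMUSG00000032089, chromosome 9 from 45253837 to 45269149, minus strand), the ligand-binding chain, varied least across the 6 libraries of the 10 genes (1.44-fold). It had 8060.0, 8276 and 8419 normalized counts at 1, 3 and 12 weeks in Il10rb+/- MΦs, a range of 1.04-fold. In Il10rb-/- MΦs the values were 6222, 8971 and 8606, so only the 1-week library was below the control range. The log2 ratio between genotypes was -0.37 at 1 week (-0.43 to -0.32), 0.12 at 3 weeks and 0.03 at 12 weeks with an interval that spans 0. Per kilobase of exon, Il10ra transcripts in Il10rb+/- MΦs were at 2304, 2366 and 2407 normalized counts against 320.5, 247 and 291 for Il10rb, so the private chain was the more abundant of the pair in every control library. The genes most alike in pattern were Nubpl (r = 0.97), Clint1 (0.97) and Rnf145 (0.97), with 8 of 11066 genes at 0.95 or more.

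Stat3 (ENSMUSG00000004040, chromosome 11 from 100885098 to 100939540, minus strand) had 3128, 4504 and 7235 normalized counts at 1, 3 and 12 weeks in Il10rb+/- MΦs. It had 3132, 4974 and 8904 in Il10rb-/- MΦs. Both genotypes were in the same order by age, and the log2 ratio between them was 0.00, 0.14 and 0.30 at the 3 ages. Stat3 was thus present at the control level or slightly above it where its upstream receptor chain was missing.

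Socs3 (ENSMUSG00000053113, chromosome 11 from 117966079 to 117970047, minus strand), which encodes a STAT3-induced inhibitor of gp130-type receptors, was the most abundant of the 10 genes per kilobase in all 6 libraries. It had 16337, 42954 and 46948 normalized counts in Il10rb+/- and 17516, 35346 and 59079 in Il10rb-/- cells. The genotype log2 ratios were 0.10, -0.28 and 0.33, with the sign differing by age. The 3-week values of either genotype exceeded both 1-week values. Il27ra, the receptor chain for IL-27, followed Socs3 most closely over the 6 libraries (r above 0.99), with 21.8 normalized counts in the 1-week Il10rb+/- library and 158 in the 12-week Il10rb-/- library, and 112 of 11066 genes were at r of 0.95 or more, next among them Rnf128 and Rarg (both r = 0.99).

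Among the target genes, Nfil3 (ENSMUSG00000056749, chromosome 13 from 52967209 to 52981073, minus strand) encodes a bZIP transcriptional repressor that IL-10 is known to induce and that limits Il12b. It had 1814, 4237 and 4724 normalized counts in Il10rb+/- MΦs. In Il10rb-/- MΦs it had 3100.4, 4834 and 16964, higher than the control at every age. The log2 ratios were 0.77 at 1 week (0.68 to 0.86), 0.19 at 3 weeks (0.11 to 0.27) and 1.84 at 12 weeks (1.81 to 1.88). The highest of the 6 values was thus that of the oldest mouse without the receptor chain.

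Ddit4 (ENSMUSG00000020108, chromosome 10 from 59949669 to 59951834, minus strand), also called Redd1, encodes an inhibitor of mTORC1 that IL-10 is known to induce in macrophages and that hypoxia and glucocorticoids also induce. It had 323, 392 and 154 normalized counts in Il10rb+/- MΦs and 231, 324 and 2030.0 in Il10rb-/- MΦs. The Il10rb-/- level was below the control at 1 and 3 weeks (log2 ratios -0.49 and -0.28, the latter with an interval of -0.55 to 0.00) and above it at 12 weeks (3.72, 3.55 to 3.89, from 3188 against 326 reads). The 12-week libraries held the lowest and the highest of all 6 values. Between 3 and 12 weeks the log2 ratio was -1.35 in Il10rb+/- and 2.65 in Il10rb-/- MΦs. Hif1a, given above, was highest in the same 12-week Il10rb-/- library, and the summed neutrophil markers were at 438 and 5339 normalized counts in the 12-week pair. Their part in the Nfil3 and Ddit4 differences was not tested.

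Etv3 (ENSMUSG00000003382, chromosome 3 from 87525407 to 87540156, plus strand) encodes an ETS-family repressor. It had 2839.7, 3908 and 7748 normalized counts in Il10rb+/- and 2543, 4228 and 3573.5 in Il10rb-/- cells. The 12-week control was above the other 5 libraries, and the log2 ratio at that age was -1.12 (-1.16 to -1.07), short of 3-fold.

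Sbno2 (ENSMUSG00000035673, chromosome 10 from 80056992 to 80105571, minus strand), a corepressor induced by IL-10, and Bcl3 (ENSMUSG00000053175, chromosome 7 from 19808462 to 19822770, minus strand), a nuclear IkappaB protein that restrains NF-kappaB target genes, differed little between genotypes. Sbno2 had 1611, 3877 and 7304 normalized counts in Il10rb+/- and 2115, 3745 and 6797 in Il10rb-/- cells, with log2 ratios of 0.39, -0.05 and -0.10. Bcl3 had 825, 1407 and 2938 in Il10rb+/- and 1077, 1549 and 3426 in Il10rb-/- MΦs, with log2 ratios of 0.38, 0.14 and 0.22. For both genes the 3 ages were separated without overlap between genotypes, the lowest 12-week value lying above the highest 3-week value. Stat3 showed the same separation, and how many of all genes do so was not counted.

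Counted over the axis, at 1 and 3 weeks 1 of the 10 genes, Il10rb, was over 3-fold apart between genotypes. Among all 11067 genes tested 3.5% were over 3-fold apart at 1 week and 1.98% at 3 weeks. At 12 weeks 4 of the 10 were (Il10rb and Il10 lower, Nfil3 and Ddit4 higher), where 14% of all genes were. Without Il10rb, the median log2 ratio of the other 9 was 0.00, 0.11 and 0.22 at the 3 ages, beside -0.04, 0.02 and 0.04 over all genes tested. The range of those 9 was -0.49 to 0.77 at 1 week, -0.28 to 0.19 at 3 weeks and -2.16 to 3.72 at 12 weeks. Of Socs3 and the 5 other target genes, 4 were above and 2 below the control at 12 weeks. Scaling by total reads in place of the deposited size factors shifted the median of all genes by -0.22 at 12 weeks and turned the 12-week log2 ratio of Il10ra to -0.19, while Bcl3 came to 0.00. TMM scaling turned Il10ra to -0.03.

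**Figure D2:**
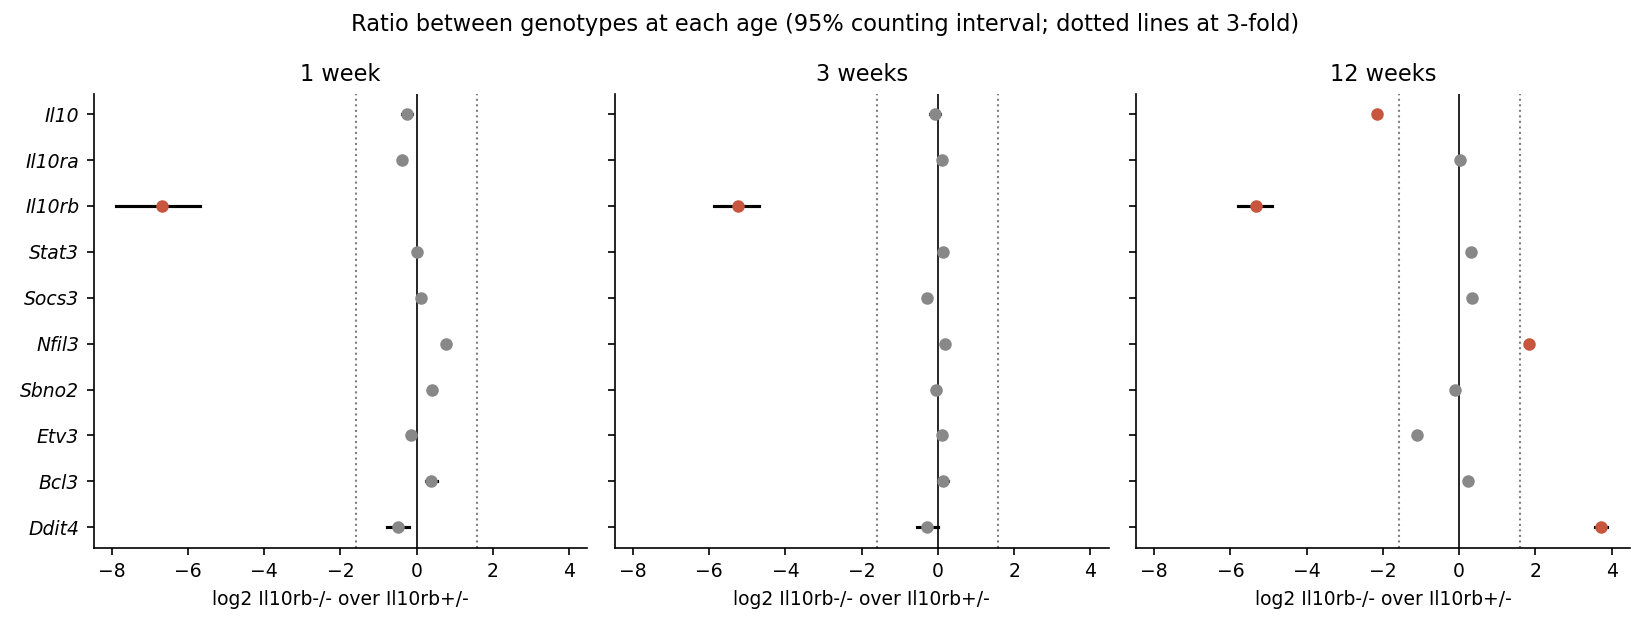
Log2 ratio of Il10rb-/- over Il10rb+/- normalized counts (horizontal axis) for each gene at 1, 3 and 12 weeks, 1 library per genotype and age. Bars are 95% counting intervals, dotted lines mark 3-fold and red points lie past it: Il10rb at every age, and at 12 weeks also Il10 (-2.16), Nfil3 (1.84) and Ddit4 (3.72).

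The question whether genotype mattered across ages was addressed with limma on all 6 libraries, with age as a term and log2(normalized count + 1) as the value. None of the 11067 genes had an adjusted p under 0.05 (0%, with 853 at an unadjusted p under 0.05), Il10rb included. Il10rb had a log2 change of -5.68 ± 0.34 (SE, 3 libraries a side) and a Benjamini-Hochberg adjusted p of 0.0616 in limma, and it was lower at 3 of 3 ages. Nfil3 had 0.94 ± 0.33 and an adjusted p of 0.627 in limma, being higher at 3 of 3 ages, and Il10 -0.83 ± 0.43 with the same adjusted p. Leaving out the libraries of 1 age moved Nfil3 between 0.48 and 1.31 and Il10 between -1.21 and -0.16, in each case with the value nearest 0 when the 12-week libraries were left out. The error of this fit is the variation of the genotype difference between ages, with 2 residual degrees of freedom before moderation, so a difference at 12 weeks alone adds to the error as well as to the estimate.

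Age separated the axis more evenly than genotype did. Age cannot be told apart from pooling, as only the 1-week libraries were pools, nor from depth, as both 12-week libraries were the deepest. From 1 to 12 weeks, with genotype as a term, 4 of the 10 genes passed limma's test and all 4 rose, while 7.25% of all genes tested passed (555 up and 247 down). The log2 change was 1.75 ± 0.18 for Bcl3 (adjusted p = 0.0147 in limma), 1.93 ± 0.21 for Sbno2 (0.0167), 1.36 ± 0.20 for Stat3 (0.0263) and 1.64 ± 0.28 for Socs3 (0.0345), each higher at 12 than at 1 week in both genotypes. Nfil3 (1.92 ± 0.40, adjusted p = 0.0506 in limma) and Il10 (2.02 ± 0.52, 0.0741) were also higher in both genotypes and did not pass. When 1 library was left out, Nfil3 lay between 1.23 and 2.60 and Il10 between 1.02 and 3.02, the extremes coming when a 12-week library was the one left out. Etv3 had 0.97 ± 0.33 (0.119; 0.42 to 1.52 when 1 library was left out), Il10rb 0.49 ± 0.41 (0.450), Il10ra 0.27 ± 0.22 (0.453; -0.22 when scaled by total reads) and Ddit4 1.03 ± 1.02 (0.519). The fitted value was above 0 for all 10 genes (9 when scaled by total reads), with a median of 1.5 beside 0.02 over all genes. The transducer, its feedback inhibitor, the corepressor and the nuclear IkappaB protein therefore rose with age over both genotypes in 1 fit, and whether the rise differed between genotypes was not tested. Socs3 lost its call with no filter on low values (adjusted p = 0.0525 in limma), and Nfil3 gained one with a pseudocount of 10. No call among the 4 remained without a mean-variance trend in the fit, where their adjusted p was 0.0548 for Bcl3, 0.0591 for Sbno2 and 0.0674 for both Stat3 and Socs3. Leaving out 1 library makes 1 age a single library, assumed to vary like the other ages, which alone give the spread. Such fits keep 1 residual degree of freedom, so their calls are not counted. In them the log2 change lay between 1.65 and 1.85 (Bcl3), 1.70 and 2.17 (Sbno2), 1.24 and 1.47 (Stat3) and 1.43 and 1.85 (Socs3). Stat3 and Socs3 did not keep their calls without a 1-week or a 3-week library. Ddit4 had 3.08 without the 12-week Il10rb+/- library and -1.01 without the 12-week Il10rb-/- library.

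**Figure D3:**
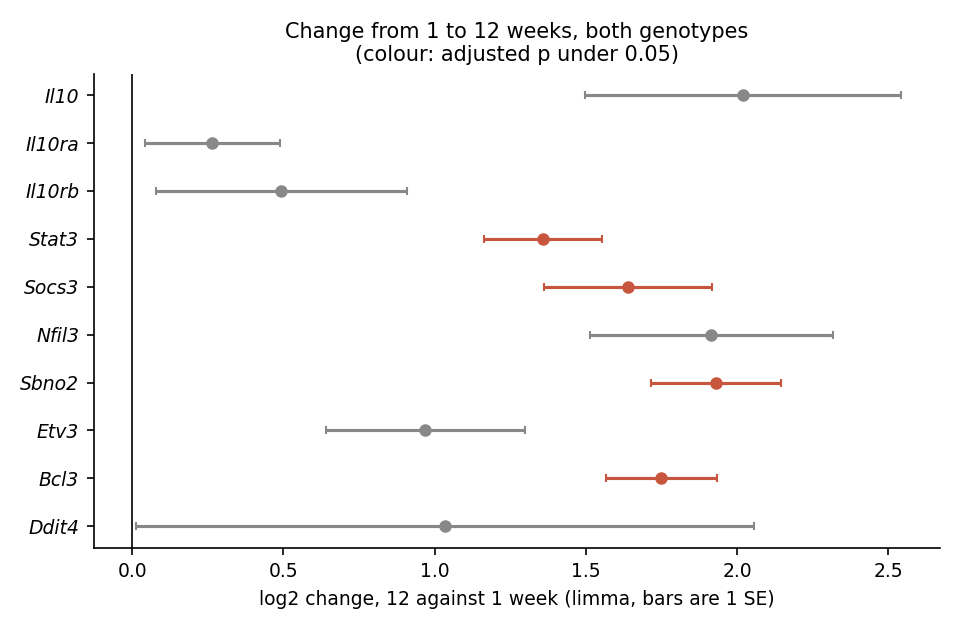
Log2 change from 1 to 12 weeks (horizontal axis) fitted by limma over both genotypes on log2(normalized count + 1), with bars of 1 SE, for each gene. Red points are Stat3, Socs3, Sbno2 and Bcl3, with adjusted p under 0.05 (changes of 1.36 to 1.93), and Ddit4 has the widest bar (SE 1.02).

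Over the separate steps, none of the 10 genes passed between 1 and 3 weeks or between 3 and 12 weeks, where 0.0181% and 0.0271% of all genes tested passed (2 and 3 genes; 957 and 2261 at an unadjusted p under 0.05). In the first step Sbno2 (1.05 ± 0.21, adjusted p = 0.250 in limma), Socs3 (1.2 ± 0.28, 0.279), Bcl3 (0.65 ± 0.18, 0.382) and Stat3 (0.60 ± 0.20, 0.460) had an unadjusted p under 0.05. In the second step these were Bcl3 (1.10 ± 0.18, adjusted p = 0.115 in limma), Sbno2 (0.89 ± 0.21, 0.161), Stat3 (0.76 ± 0.20, 0.165) and Il10 (1.58 ± 0.52, 0.210). That of Il10 was 0.57 without the 12-week Il10rb+/- library and 2.58 without the 12-week Il10rb-/- library. By fold between single libraries, 0 of the 10 were over 3-fold apart between 1 and 3 weeks in either genotype (6.56% of all genes in Il10rb+/- and 5.02% in Il10rb-/- MΦs). Between 3 and 12 weeks 1 of 10, Il10, was over 3-fold higher in Il10rb+/- MΦs (6.36% of all genes over 3-fold either way), and 2 of 10, Nfil3 and Ddit4, in Il10rb-/- MΦs (14.2%). Calls of fits without 1 library are not counted for these steps either, with the same limit on the spread. The comparisons of neighbouring ages share the 3-week libraries.

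The order of the genes by level per kilobase of exon was similar in the early libraries. At 1 week in Il10rb+/- MΦs it ran from Socs3 (5651 normalized counts per kilobase) through Il10ra (2304), Il10 (1015), Nfil3 (896), Bcl3 (333), Stat3 (328), Il10rb (320.5), Etv3 (276) and Ddit4 (184) to Sbno2 (150.4). Bcl3, Stat3 and Il10rb are neighbours in this order that no replicate separates. At 12 weeks Il10 (8006) lay below Socs3 alone in Il10rb+/- MΦs, and in Il10rb-/- MΦs (1785) it lay below Socs3, Nfil3 (8373) and Il10ra (2460.2). Ddit4 was lowest of the 10 in the 12-week Il10rb+/- library (87.8) and above Stat3, Sbno2, Etv3 and Il10rb in the Il10rb-/- library (1157).

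Partners of the pathway were examined as a list of 25 JAK, STAT, SOCS, PIAS and phosphatase genes, all of them measured. None was over 3-fold apart between genotypes at 1 week, 1 was higher at 3 weeks and 2 at 12 weeks (3.5%, 1.98% and 14% of all genes were over 3-fold either way). The medians were -0.01, 0.18 and 0.56 in log2 ratio, beside -0.04, 0.02 and 0.04 over all genes. The phosphatase gene Ptpn1 was at 5154 and 15670.0 normalized counts at 12 weeks, a log2 ratio of 1.60 that came under 3-fold with either other scaling. Ptpn6, which encodes SHP-1, was at 4991 and 7498. Between 1 and 12 weeks 4 of these 25 rose in limma and none fell, where 7.25% of all genes were called (555 up and 247 down).

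Of 9 other receptor genes past the filter whose products signal through STAT3, none was over 3-fold apart at 1 or 3 weeks, and at 12 weeks 2 were higher and 1 lower, where 14% of all genes were over 3-fold either way. Csf3r, the G-CSF receptor of neutrophils and some monocytes, was at 1419.8 and 6944 normalized counts in 12-week Il10rb+/- and Il10rb-/- MΦs. Il23r had 12.3 and 50.3 normalized counts and Osmr 72.3 and 14.6 at that age. Each passed the filter only through its higher 12-week value, so the filter favoured a difference there. Il21r was at 2531 and 6952 normalized counts, under 3-fold. The summed neutrophil markers given above were also higher in the 12-week Il10rb-/- library. At 1 week they were at 12.9 and 41.9 normalized counts in Il10rb+/- and Il10rb-/- MΦs, where Csf3r was at 1515 and 1559. Their part in the Csf3r difference was not tested.

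Of 11 other genes of the IL-10 cytokine family and its receptors, 4 were in the table and 3 past the filter. Il22, whose product signals through IL10RB, had 92.2 and 12.0 normalized counts in Il10rb+/- and Il10rb-/- libraries at 1 week. At 3 weeks it had 4.87 and 42.2, from 2 and 48 reads (log2 ratio 3.12, 1.18 to 6.20), the control being below the floor of 3 reads. At 12 weeks it had 295 and 395 (0.42, 0.26 to 0.58). Il22ra2, the decoy receptor for IL-22, had 6.94 and 80.9 normalized counts at 1 week and 113 and 26.1 at 12 weeks, so the genotypes stood in opposite order at these ages. Ifnlr1, which pairs with IL10RB for type III interferons, had 31.2 and 105.7 normalized counts at 12 weeks, and 1 and 19 reads at 1 week (log2 ratio 4.84, 2.19 to 10.2). It passed the filter only through the 12-week Il10rb-/- library, so the filter favoured a higher value there.

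Other genes known to be induced by IL-10 did not move one way. Of the 21 measured, 1 was over 3-fold higher and 1 lower in Il10rb-/- MΦs at 1 week, none at 3 weeks, and 1 higher and 2 lower at 12 weeks. Over all genes 3.5%, 1.98% and 14% were over 3-fold either way at these ages, so the 3 of 21 at 12 weeks is the share of all genes. Their median by age was 0.05, -0.19 and 0.04 in log2 ratio, beside -0.04, 0.02 and 0.04 over all genes tested. Cd163, the haemoglobin scavenger receptor of resident macrophages, had 247, 4536 and 4112 normalized counts in Il10rb+/- MΦs by age and 55.4, 2901 and 52.2 in Il10rb-/- MΦs. Mrc1, the mannose receptor, had 14262, 19977 and 12185 in Il10rb+/- and 8578, 14106 and 618 in Il10rb-/- MΦs. Il1rn, the IL-1 receptor antagonist, was instead higher at each age, with 5509.8, 20687 and 55052 normalized counts in Il10rb+/- and 17479, 43682 and 165484 in Il10rb-/- cells. Its log2 ratio of 1.59 at 12 weeks came under 3-fold with either other scaling. Zfp36, which promotes decay of inflammatory mRNAs, was at 153961 and 146552 at 12 weeks, and Dusp1, a MAP kinase phosphatase, at 126902 and 103653. Cx3cr1 and Adgre1, markers of resident intestinal macrophages, moved with Cd163 and Mrc1 at 12 weeks (8074 and 906, and 16537 and 3799.6 normalized counts), as did 5 of the 15 macrophage markers in all, and their part was not tested. Between 1 and 12 weeks 7 of the 21 rose in limma and none fell, beside 7.25% of all genes called.

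Genes known to be repressed by IL-10 were higher more often than lower. Of 20, 2 were over 3-fold higher in Il10rb-/- MΦs at 1 week, 6 at 3 weeks and 8 at 12 weeks, with 0, 0 and 1 lower, where 3.5%, 1.98% and 14% of all genes were over 3-fold either way. Their medians were 0.21, 0.77 and 1.08 in log2 ratio, beside -0.04, 0.02 and 0.04 over all genes. Cxcl9, an interferon-induced chemokine, had 135, 195 and 512 normalized counts in Il10rb+/- and 277, 2277 and 7744 in Il10rb-/- cells by age. Il1b was at 44268, 77011 and 159466 in Il10rb+/- and 66014, 122372 and 556585 in Il10rb-/- MΦs at the 3 ages. Cxcl2 was nearly level between genotypes, at 172948 and 161308 at 12 weeks, and Ccl2 was lower, at 31968 and 1719.9. The list was written with earlier results on these libraries known, so its direction is not independent evidence.

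**Figure D4:**
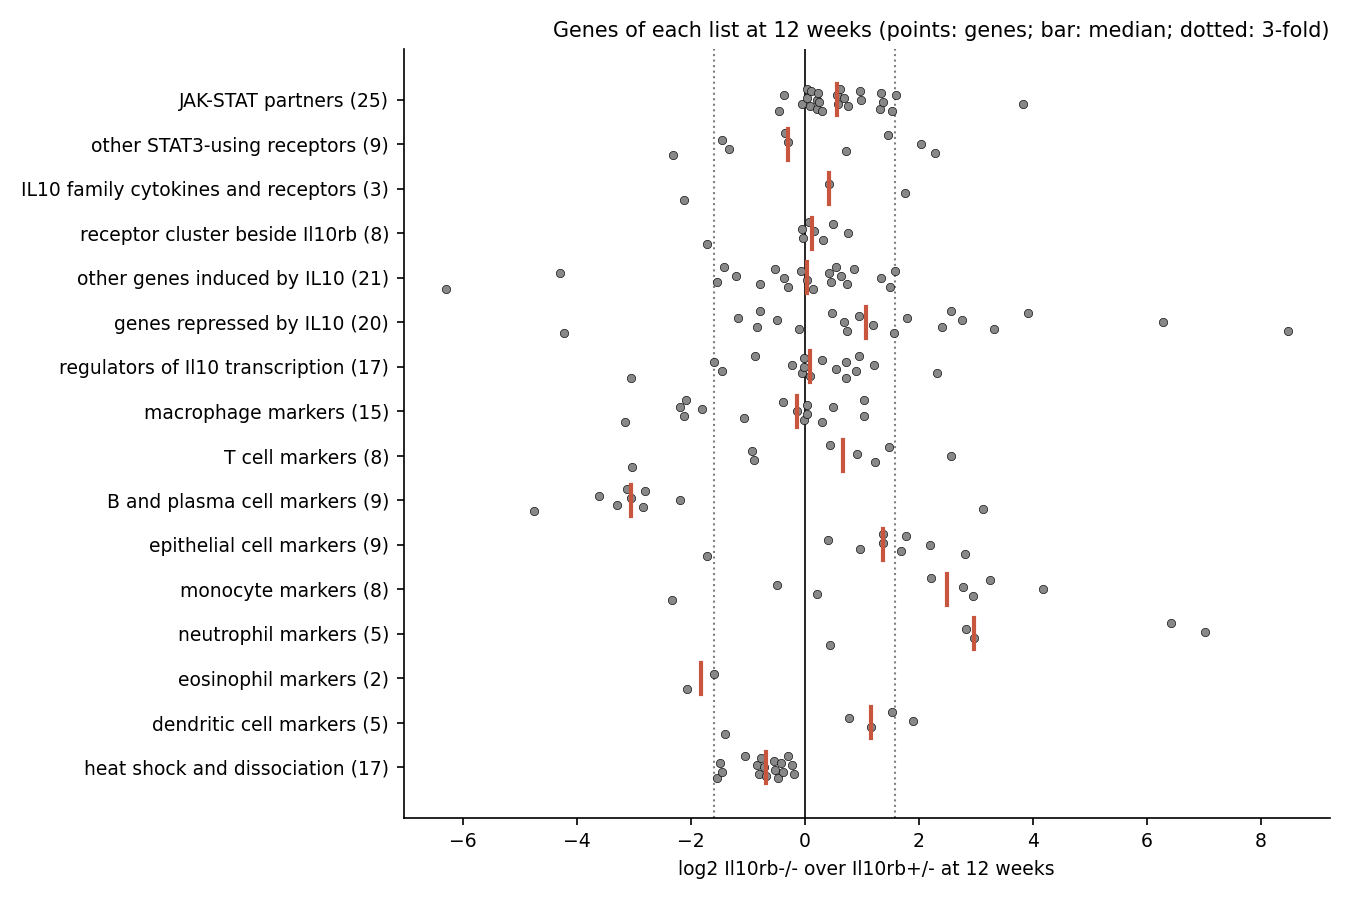
Log2 ratio of Il10rb-/- over Il10rb+/- normalized counts at 12 weeks (horizontal axis) for the genes of each list past the filter (number in brackets). Grey points are genes, red bars list medians and dotted lines 3-fold: genes repressed by IL-10 have a median of 1.08, other genes induced by IL-10 0.04, and B and plasma cell markers -3.04.

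The remaining marker lists give the setting of the 12-week values. Of those past the filter, 4 of 5 neutrophil, 5 of 8 monocyte, 4 of 9 epithelial cell, 1 of 8 T cell and 1 of 5 dendritic cell markers were over 3-fold higher in 12-week Il10rb-/- MΦs, and 1 monocyte, 1 epithelial cell, 1 T cell and 2 of 2 eosinophil markers were lower. The 4 higher neutrophil markers (S100a8, S100a9, Cxcr2 and Ltf) passed the filter only through that library, as did the monocyte marker Vcan and the T cell marker Cd3g. The eosinophil marker Ccr3 passed only through the 12-week Il10rb+/- library (52.0 normalized counts). For these genes the filter thus favoured a difference at 12 weeks. Over all 11067 genes 14% were over 3-fold either way, 446 of them higher and 1106 lower. A single higher marker of 8 T cell or of 5 dendritic cell markers is too few to set beside these shares. S100a8 had 12.8 and 1673 normalized counts and Ly6c2 143 and 2611 in the Il10rb+/- and Il10rb-/- libraries of that age. At 1 week 5 of 9 epithelial cell markers were over 3-fold higher in Il10rb-/- MΦs, Krt8 having 10.9 and 252 normalized counts. At that age 3.5% of all genes were over 3-fold apart either way. None of 17 heat shock and dissociation genes was over 3-fold apart at 12 weeks, and all 17 were lower (log2 ratios -1.54 to -0.19). Between 1 and 12 weeks 6 of them rose and 0 fell in limma, where 7.25% of all genes were called. By age, their sum was 532170, 883730 and 1137560 normalized counts in Il10rb+/- and 533034, 838619 and 732762 in Il10rb-/- MΦs. It thus fell from 3 to 12 weeks in Il10rb-/- MΦs, where Stat3, Socs3, Sbno2 and Bcl3 rose. The part of the heat shock genes in the age changes of these members was not tested.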

How the data were processed

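RNA-seq libraries of sorted colonic P3/P4 MΦs, 1 per genotype and age, were assigned to groups from the labels. The authors trimmed reads (Trim Galore), aligned them to mm10 (TopHat), counted them per gene (HTSeq) and scaled the counts with DESeq size factors. The deposited values are thus a normalized signal per gene, called normalized counts here, with a count of 0 shown as 1. Tool versions, the gene annotation and the strand setting are not given in the sources used here, so overlapping genes are uncertain. Values were not scaled by gene length, and levels per kilobase were obtained here with the exon length of GENCODE release M21 (GRCm38).

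Within each library 100% of values other than 1 were whole multiples of a single step (within 0.02 reads), from which reads were read back. One-library ratios are log2 of normalized counts with 95% intervals by the exact Clopper-Pearson method from the reads (counting error only). The threshold was 3-fold. Tests used limma 3.58.1 (R 4.3.3) on log2(value + 1) with a trend of variance on mean level, adjusted by Benjamini-Hochberg over the 11067 genes at 50 normalized counts or more in at least 1 library. A count model on the reads read back had been planned as an alternative and was not run, so the reads serve the intervals and scalings only. Other steps used matplotlib 3.10.9, pandas 2.3.3, numpy 2.4.6 and scipy 1.17.1 in Python 3.11.15, and the code for the fit, TMM scaling and intervals was tested on simulated data.

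The members and lists were chosen with earlier results of these data known. All 10 members are named. From each list, the named genes are up to 4 over 3-fold at 12 weeks (largest log2 ratio, 50 normalized counts in a 12-week library) and the 2 most abundant, not every one of which is printed (1 is withheld and not reported here). For Il10, Il10ra and Socs3 the 3 genes with the highest Pearson r are named. Alternatives were scaling by total reads and TMM, a pseudocount of 10, no filter, no trend, no age term, a 2-fold threshold and leaving out libraries.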

Additional observations from a re-analysis of the deposited data

Results flagged for a closer look

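These results are listed because counting intervals put the same ratio on opposite sides of 0 in 2 ages or 2 genotypes. With 1 library per genotype and age, none of these differences was tested. The genotype log2 ratio (Il10rb-/- over Il10rb+/-) of Ddit4 was 3.72 at 12 weeks and -0.49 at 1 week, a difference of 4.21. That of Etv3 was 0.11 at 3 weeks and -1.12 at 12 weeks, a difference of 1.23. For Socs3 it was 0.33 at 12 weeks and -0.28 at 3 weeks (difference 0.61), for Sbno2 0.39 at 1 week and -0.10 at 12 weeks (0.50), and for Il10ra 0.12 at 3 weeks and -0.37 at 1 week (0.49). From 3 to 12 weeks Ddit4 had a log2 ratio of 2.65 in Il10rb-/- and -1.35 in Il10rb+/- MΦs, a difference of 4.0. Over the same interval Etv3 had -0.24 and 0.99, which is the same difference of 1.23 seen from the age side.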

How the results depend on the processing

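The number of genes of the axis over 3-fold between genotypes (1, 1 and 4 of 10 at 1, 3 and 12 weeks) was the same with total-read scaling, TMM and a pseudocount of 10, and with a 2-fold threshold it stayed within 1.5 times. Between ages a 2-fold threshold gave 3 genes (3 over 1 week, Il10rb+/-), 3 (12 over 3 weeks, Il10rb+/-) and 2 (3 over 1 week, Il10rb-/-), and total-read scaling gave 2 (12 over 3 weeks, Il10rb+/-) and 1 (12 over 3 weeks, Il10rb-/-). In limma, genotype across ages gave 1 call, Il10rb, with a pseudocount of 10 and with no age term. When any 1 age was left out, the log2 change of Il10rb lay between -5.92 and -5.24. Such fits keep 1 residual degree of freedom, so their calls are not counted. When 1 library was left out, the calls ranged from 0 to 4 for 3 against 1 week, from 0 to 5 for 12 against 3 weeks and from 2 to 8 for 12 against 1 week, and no trend gave 0 for the last. Between 12 and 1 week total-read scaling turned Il10ra to -0.22, and leaving out 1 library spread Il10rb from -0.16 to 1.15 and Ddit4 from -1.01 to 3.08. Over all genes tested and with all 6 libraries kept, limma calls for genotype ranged across alternatives from 0 to 1. In the same fits calls ranged from 0 to 8 for each of the 2 steps. For 12 against 1 week that range was 83 (no trend) to 2443 (total-read scaling). That scaling also took the share of higher genes among those over 3-fold from 85.1% to 75% (12 over 3 weeks, Il10rb+/-) and from 40.5% to 24.0% (Il10rb-/-). Of 210 alternative values of member log2 ratios, 151 stayed within the counting interval and no value over 3-fold changed sign. The cause of these changes was not tested, except that leaving out a library leaves fewer samples. The planned count model on reads read back was not run. By replicate number, no paired analysis was possible because each group holds 1 library. The age term of the genotype fit does compare genotypes within ages, and its removal is given above. Depth limits Il10rb in Il10rb-/- MΦs (8 to 43 reads) and the IL-10 family genes.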
